A study of Mus musculus with 17 samples.

Results

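The genes described here are Ank, Sulf2, Dhx33, Il4i1 and Cd34, 5 of the 13501 genes in a table of bulk RNA sequencing from mouse brain, chosen by symbol because their Trem2 knockout and wild-type levels had been seen to differ more in microglia than in transplanted cells. That choice used the Trem2 difference in each cell population, the contrast between them and normal microglia as a baseline, so these values are given as a description without a test. The wording "only in microglia" under which the genes had been grouped was not fully borne out. Il4i1 was also lower in every Trem2 knockout transplanted library than in any wild-type transplanted library, as were 7.74% of genes tested. Its nearest libraries almost touched, and reads over the 83.9% of its exon bases shared with Tbc1d17 cannot be told apart from reads of that gene. The mean of Sulf2 leaned the same way, and both transplanted differences shrank without libraries S30 and S31. The microglial difference of Dhx33 rested on 2 of 3 knockout libraries. All 5 genes passed the filter on low values, and 12074 genes were tested.

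Living CD45+CD11b+ cells were sorted from brain, and 17 libraries fell into 5 groups. Transplanted cells, labelled circulation-derived myeloid cells, came from Trem2 knockout mice with the 5xFAD transgenes that had received bone marrow and PLX5622, an inhibitor of the CSF1 receptor that depletes microglia. The donor marrow was Trem2 knockout (4 libraries, S32 to S35) or Trem2 wild type (4 libraries, S28 to S31), so the host of both groups lacked Trem2 and carried 5xFAD. Microglia without treatment came from Trem2 knockout 5xFAD mice (3 libraries, S25 to S27), Trem2 wild-type 5xFAD mice (3 libraries, S22 to S24) and normal wild-type mice without 5xFAD (3 libraries, S20, S21 and S36). The 5xFAD transgenes express mutant human amyloid precursor protein and presenilin in neurons under the Thy1 promoter, which leads to brain amyloid. The stated gate names no donor marker, and the sources used here give neither the ages of the mice nor the Trem2 allele. Nor do the labels say whether libraries of a group are separate animals, so the spread between them may be partly technical.

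Trem2 is a lipid-sensing receptor of microglia and macrophages that signals through Tyrobp and is known to be needed for the full change of microglia around amyloid plaques. Ank carries pyrophosphate and its precursor ATP out of cells and thereby limits mineral deposition. Sulf2 is a secreted sulfatase that trims sulfate groups from heparan sulfate chains. Il4i1 is a secreted amino acid oxidase of myeloid cells that acts on phenylalanine and tryptophan and yields ligands of the aryl hydrocarbon receptor Ahr. Dhx33 is a DEAH-box RNA helicase with known roles in ribosomal RNA synthesis and in sensing cytosolic RNA upstream of the Nlrp3 inflammasome. Cd34 is a cell surface sialomucin best known on hematopoietic progenitors and vascular endothelium.

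Trem2 itself matched the labels. Normalized read counts of Trem2 lay between 3962 and 5965 in the 7 knockout libraries and between 37066 and 53908 in the 7 wild-type libraries from hosts with 5xFAD. Library depth ran from 16044078 to 30606394 recovered reads. The summed level of 8 resident microglia markers was 121469 to 176047 in transplanted libraries and 358534 to 507372 in microglia libraries, whereas 14 markers of brain macrophages of hematopoietic origin summed to 166667 to 212951 in transplanted libraries and 32574 to 42237 in microglia libraries, and no listed marker of either kind was at 0. Libraries S25 and S27 lay close together and apart from S26 among the knockout microglia, and their 13 neutrophil markers summed to 126773 and 136837, against 55409 in S26 and 15327 to 18073 in wild-type 5xFAD microglia. Libraries S30 and S31 likewise lay close together among the wild-type transplanted cells and carried the highest oligodendrocyte marker sums, 24224 and 24566, against 4530 to 11093 in the other transplanted libraries. In sorted bulk samples, fewer cells of a type and less RNA per cell cannot be told apart.

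In 4 of the 5 genes, all but Dhx33, each wild-type 5xFAD microglia library lay above each of the other 14 libraries. Of all genes tested, 2.27% had that pattern, which the choice of genes had favoured. The promoters of those 4 genes are shown because the genes share this pattern. Each is a RefSeq window on GRCm38.p6 from 250 bases before to 50 bases after the annotated start, printed 5′ to 3′ on the strand of the gene, with motif matches in capitals. The windows are chr15:27466427-27466726 on the plus strand for Ank, chr2:166155634-166155933 on the minus strand for the first of 2 windows of Sulf2, chr7:44836038-44836337 on the plus strand for Il4i1 and chr1:194938571-194938870 on the plus strand for Cd34. The Il4i1 window lies inside the annotated gene, whose span begins upstream at 44816387, and no window at that upstream end was searched.
Ank: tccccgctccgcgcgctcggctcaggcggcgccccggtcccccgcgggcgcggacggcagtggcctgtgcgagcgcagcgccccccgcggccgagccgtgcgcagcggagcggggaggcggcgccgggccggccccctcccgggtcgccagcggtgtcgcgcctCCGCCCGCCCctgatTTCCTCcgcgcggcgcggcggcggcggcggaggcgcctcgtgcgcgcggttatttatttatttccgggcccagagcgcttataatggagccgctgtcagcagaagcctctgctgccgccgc
Sulf2: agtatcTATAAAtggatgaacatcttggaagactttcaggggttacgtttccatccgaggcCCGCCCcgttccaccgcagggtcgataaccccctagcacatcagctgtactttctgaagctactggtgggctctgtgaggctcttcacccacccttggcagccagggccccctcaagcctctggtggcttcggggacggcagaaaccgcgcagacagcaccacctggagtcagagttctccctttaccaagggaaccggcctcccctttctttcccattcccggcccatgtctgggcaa
Il4i1: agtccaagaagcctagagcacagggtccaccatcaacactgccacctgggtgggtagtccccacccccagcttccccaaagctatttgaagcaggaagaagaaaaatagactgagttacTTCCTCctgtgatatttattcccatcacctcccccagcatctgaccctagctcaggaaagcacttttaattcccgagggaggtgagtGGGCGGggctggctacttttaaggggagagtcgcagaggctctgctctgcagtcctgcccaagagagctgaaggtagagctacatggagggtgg
Cd34: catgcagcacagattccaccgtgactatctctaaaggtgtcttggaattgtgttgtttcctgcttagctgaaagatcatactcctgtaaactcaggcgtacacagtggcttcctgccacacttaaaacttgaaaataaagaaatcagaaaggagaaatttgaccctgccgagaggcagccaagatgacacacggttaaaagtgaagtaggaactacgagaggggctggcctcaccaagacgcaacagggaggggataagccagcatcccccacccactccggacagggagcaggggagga

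Both strands were searched for 6 motifs, the PU.1 core GAGGAA, the AP-1 site TGANTCA, the E-box CACGTG, the GC box GGGCGG, the TATA box TATAAA and the MEF2 site (CTA and TAG with 4 bases between). The PU.1 core stood in the windows of Ank, Il4i1 and Dhx33, at positions -71, -131 and -89 from the start, in each case as TTCCTC on the printed strand. This 6-letter core occurred in 28.3% of 32851 windows, so a match in 3 of the 6 member windows is a description of letters and not of binding. A GC box, found in 35.7% of windows, was present in Ank, the first window of Sulf2, Dhx33 and Il4i1; in Ank 2 overlapping copies sat at -86 and -82. Sulf2 also held TATAAA at -244 (13.6% of windows), and Dhx33 held CACGTG at -35 (7.15% of windows). The Cd34 window and the second Sulf2 window held none of the 6, and no member window held the AP-1 letters (7.81% of windows) or the MEF2 letters (3.69%). Base composition differed widely, from 78% GC in Ank, at the 98.2 percentile of all windows, to 50% in Cd34.

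All 5 genes were lower in Trem2 knockout than in wild-type 5xFAD microglia in every library. Among all genes tested, 11.3% had every knockout microglia library below every wild-type one, but the genes had been chosen on this contrast. At a limma adjusted p under 0.05, 5.09% of all genes were called in it (2.5% higher and 2.59% lower in knockout), 6.74% between transplanted cells (2.99% higher and 3.75% lower in knockout) and 2.82% in the difference between these contrasts. Without S30 and S31, 20 in place of 814 genes were called between transplanted cells, and the microglial contrast called 3666 without S26, in place of 615. Without S25 and S27, S26 is the only knockout microglia library left, so for that setting only sizes of microglial differences are given. Differences are given on the log2(value + 1) scale with the standard error (SE) of a limma model fitted to all libraries. The knockout-minus-wild-type difference in microglia was -2.86 (SE 0.12) for Ank, -2.12 (SE 0.21) for Sulf2, -1.82 (SE 0.18) for Il4i1, -1.12 (SE 0.15) for Cd34 and -1.07 (SE 0.24) for Dhx33. The same difference between transplanted cells was 0.11 (SE 0.11) for Ank, 0.27 (SE 0.20) for Dhx33 and 0.17 (SE 0.13) for Cd34. Sulf2 and Il4i1 had -0.39 (SE 0.18) and -0.51 (SE 0.16) there. The transplanted difference minus the microglial difference was 2.97 for Ank, 1.73 for Sulf2, 1.33 for Dhx33, 1.31 for Il4i1 and 1.29 for Cd34, with SEs from 0.16 to 0.31. The transplanted difference compares donor marrow in treated hosts that all lacked Trem2, and the microglial one compares untreated mice that themselves differed in Trem2. Cell origin, treatment and host genotype therefore cannot be told apart in this contrast.

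**Figure D1:**
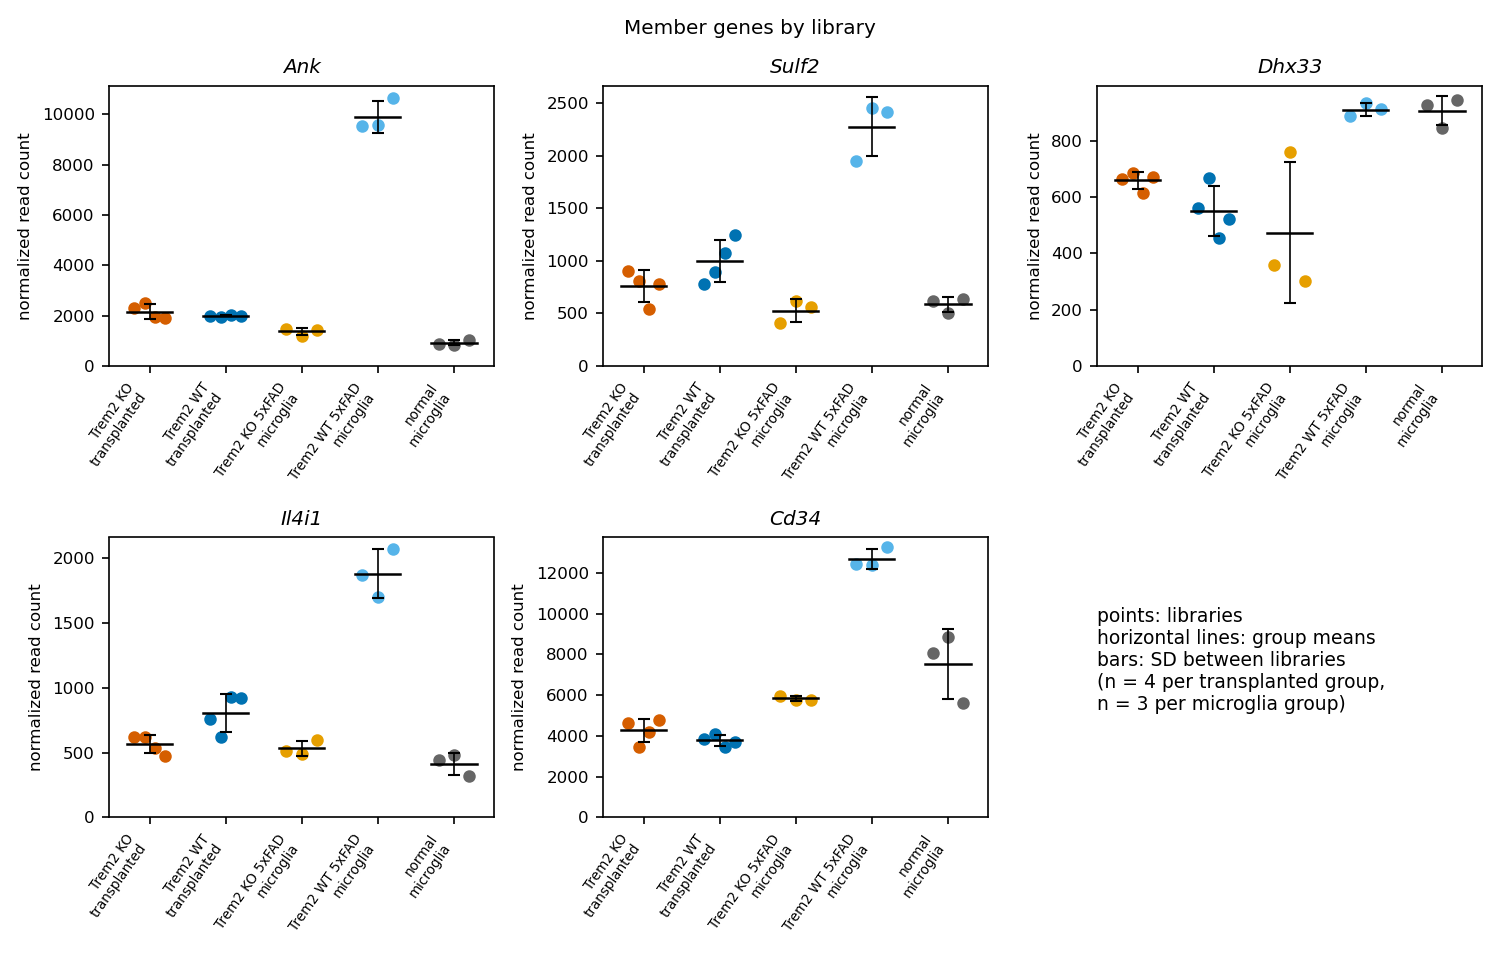
Normalized read count (vertical axes, from 0) of each gene in each of the 17 libraries, with group means and SDs (n = 4 per transplanted group, 3 per microglia group). Wild-type 5xFAD microglia stand above all other libraries for Ank, Sulf2, Il4i1 and Cd34, whereas Dhx33 is as high in normal microglia and splits the knockout microglia at 301, 358 and 762.

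**Figure D2:**
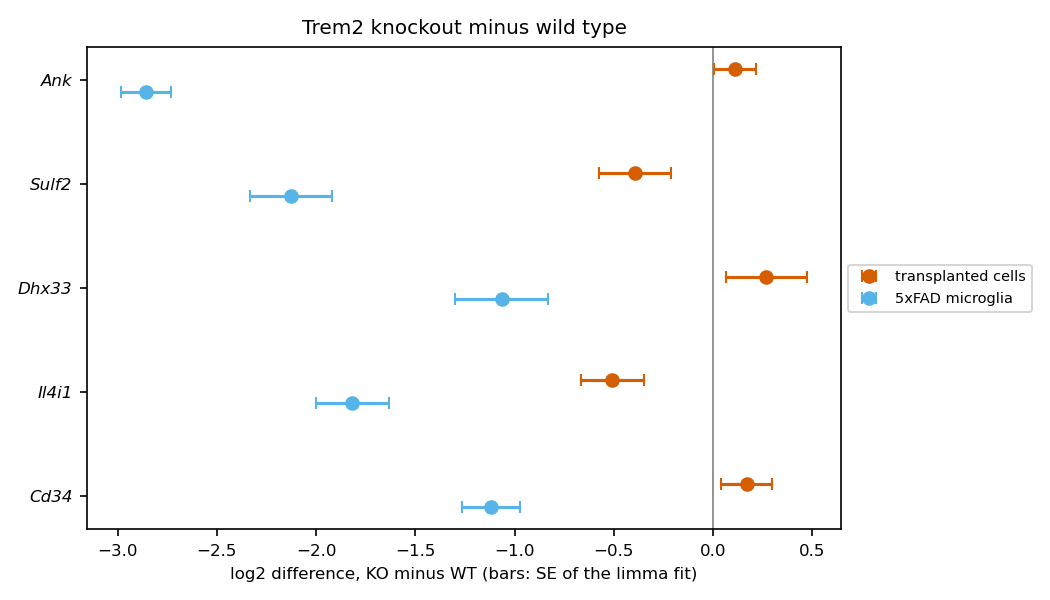
Trem2 knockout minus wild type on the log2(value + 1) scale (horizontal axis) for each gene in transplanted cells and in 5xFAD microglia, with the SE of the limma model as bars. Microglial differences run from -2.86 to -1.07, and transplanted differences from -0.51 to 0.27.

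Ank, the pyrophosphate transporter at chr15:27466677-27594909 on the plus strand, had the widest contrast. Its normalized read counts were 2292, 2491, 1944 and 1888 in Trem2 knockout transplanted cells and 1985, 1956, 2007 and 1981 in Trem2 wild-type transplanted cells. Knockout 5xFAD microglia had 1481, 1205 and 1424, wild-type 5xFAD microglia 9526, 9553 and 10630, and normal microglia 886, 828 and 1031. The transplanted groups overlapped, and both lay above the knockout microglia, which in turn lay above the normal microglia without overlap. Wild-type 5xFAD microglia were at 1082% of the normal mean and knockout 5xFAD microglia at 149.8%, so a small excess over normal microglia was present without Trem2. Wild-type transplanted cells reached 20.02% of the wild-type microglial mean. Their 4 libraries agreed closely, with a coefficient of variation of 1.06%, against 6.36% to 13.3% in the other groups. Per kilobase of exon, Ank was the most abundant of the 5 genes in wild-type 5xFAD microglia, at 2743 normalized reads, above 97.7% of tested genes.

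Other genes of pyrophosphate and phosphate handling did not share this pattern as a list. Of 17 tested, the only gene called by limma in knockout against wild-type microglia was Nt5e, and the list median of that difference was 0.00 against -0.01 over all genes. At an unadjusted p under 0.05, 1 gene was higher and 4 were lower, and edgeR and DESeq2 each called 1 gene, which was higher. Nt5e, which makes adenosine from AMP, rose to a mean of 31.96 in knockout against 2.72 in wild-type microglia (log2 difference 3.00, SE 0.72, limma adjusted p = 0.0206). The wild-type 5xFAD mean and the normal mean of 6.63 lay below the filter value of 10, so the size of this difference rests on few reads. Without S25 and S27 the Nt5e difference was 1.15, and without S26 the list had 1 gene higher and 2 lower. With the closest libraries averaged (S22 with S23, S25 with S27 and S30 with S31), the list had 0 genes higher and 0 lower. Here and below, means of genes other than the members are over the 3 or 4 libraries of a group. Enpp1, which makes extracellular pyrophosphate and so supplies the same pool as Ank, had means of 430 in knockout and 608 in wild-type microglia and did not pass that test. Between transplanted cells Enpp4 and Entpd1 rose, and Enpp2, which makes lysophosphatidic acid, fell. All 3 calls were lost without S30 and S31, where the differences were 0.39, 0.42 and -4.42, in place of 0.62, 0.43 and -4.81. In the same contrast 5 of 10 oligodendrocyte markers fell, and their part in these differences was not tested.

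Sulf2, at chr2:166073089-166155663 on the minus strand, had 906, 809, 544 and 779 normalized reads in knockout transplanted cells and 783, 889, 1069 and 1245 in wild-type transplanted cells. Knockout 5xFAD microglia had 405, 616 and 556, wild-type 5xFAD microglia 1951, 2456 and 2414, and normal microglia 620, 505 and 637. Only the wild-type 5xFAD microglia stood apart, and each of the other 4 groups overlapped its neighbours in the order of levels. The highest wild-type transplanted values were those of S30 and S31, and without these libraries the transplanted difference was -0.16 (SE 0.21). Knockout 5xFAD microglia were at 89.5% of the normal mean, against 387% for wild-type 5xFAD microglia. An overlap of 154 exon bases (2.62%) with Ncoa3 on the opposite strand was annotated, and Ncoa3 was not called in either Trem2 contrast. Its knockout microglia were split, with 1372 in S25, 2406 in S26 and 1162 in S27, against 2091 to 2294 in wild-type 5xFAD microglia. The part of Ncoa3 reads in the Sulf2 count was not tested.

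Of 29 other tested enzymes that build, modify or break down heparan sulfate, 2 fell in knockout against wild-type microglia, Gusb and Xylt1. Gusb, a lysosomal glucuronidase, averaged 9740 in knockout and 16910 in wild-type microglia (log2 difference -0.80, SE 0.10, limma adjusted p = 9.25e-05), and Xylt1, which starts the chains, averaged 56.04 and 179 in the same groups (-1.69, SE 0.38, limma adjusted p = 0.0125). The list median was -0.44, against -0.01 over all genes, and 0.09 without S25 and S27. Without S26 the count was 1 higher and 14 lower. Without S25 and S27 the Xylt1 difference was -1.51. With the closest libraries averaged, the Gusb call held and that of Xylt1 was lost. Of 13 tested proteoglycan core proteins, which carry the chains that Sulf2 trims, Sdc3 fell in knockout microglia, with means of 4453 in knockout and 10532 in wild-type microglia (log2 difference -1.25, SE 0.23, adjusted p = 0.00295), a call also lost on that averaging. Against normal microglia, 4 enzymes rose in wild-type 5xFAD microglia, Hs3st1, Xylt1, Hpse and Gusb, and 1, Sgsh, fell. Of the cores, Sdc3 rose. Of all genes, 2.83% rose, with 3.78% called in either direction. The difference between the transplanted and microglial Trem2 contrasts passed the limma test for 0 of the 29 enzymes and 0 of the 13 cores. Without S26 it passed for 7 enzymes upward and 1 downward and for 1 core upward and 2 downward. At an unadjusted p under 0.05 it did so for 6 enzymes upward and 2 downward and for 2 cores downward, edgeR called 0 of both lists, and DESeq2 called 3 enzymes and 1 core.

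Il4i1, at chr7:44816387-44840809 on the plus strand, had 617, 621, 538 and 477 normalized reads in knockout transplanted cells and 758, 622, 927 and 918 in wild-type transplanted cells. Knockout 5xFAD microglia had 513, 488 and 598, wild-type 5xFAD microglia 1871, 1697 and 2072, and normal microglia 440, 484 and 317. Here every knockout transplanted library lay below every wild-type transplanted library, as for 7.74% of genes tested, although the nearest libraries, at 621 and 622, almost touched. Knockout transplanted cells averaged 69.8% of the wild-type transplanted mean, and knockout microglia 28.4% of the wild-type microglial mean. S30 and S31 were again the highest transplanted libraries, and the transplanted difference without them was -0.29 (SE 0.18).

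The Il4i1 counts carry a limit of annotation. Exons of Tbc1d17, on the opposite strand, cover 83.9% of the Il4i1 exon bases and 98.1% of its coding bases. The cDNA kit does not mark strand, and the sources used here do not give the counting settings. Reads of the 2 genes over the shared bases therefore cannot be told apart, and how they were counted is not known. Tbc1d17, a Rab GTPase-activating protein, had 2895 to 4287 normalized reads in knockout transplanted cells, 4111 to 5032 in wild-type transplanted cells, 2839 to 3953 in knockout 5xFAD microglia, 5008 to 5225 in wild-type 5xFAD microglia and 3519 to 3824 in normal microglia. It fell in knockout microglia (log2 difference -0.68, SE 0.15, limma adjusted p = 0.0108), and its transplanted difference was -0.30 (SE 0.13, adjusted p = 0.146). Among the knockout microglia, S25 and S27 had 2839 and 2850 Tbc1d17 reads and S26 had 3953, so the microglial fall was smallest in S26. Both log2 differences of Tbc1d17 had the sign of those of Il4i1 and were smaller. In normalized reads the gap was wider for Tbc1d17, with means of 3214 in knockout and 5082 in wild-type microglia, against 533 and 1880 for Il4i1. Transplanted means were 3753 in knockout and 4595 in wild-type cells for Tbc1d17, against 563 and 806 for Il4i1. The part of Tbc1d17 reads in the Il4i1 count was not tested. Il4i1 also shares 97 exon bases with Nup62 and 82 with Atf5, and neither was called in a Trem2 contrast. Nup62 had 663 in S25, 1224 in S26 and 856 in S27, against 935 to 969 in wild-type 5xFAD microglia.

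Of 20 tested genes of tryptophan and phenylalanine metabolism and the Ahr pathway, 2 were called in knockout microglia, and both rose. These were Kmo, a kynurenine hydroxylase (74.99 in knockout and 20.7 in wild-type microglia, log2 difference 1.86, SE 0.38, adjusted p = 0.00645), and Ahr, the receptor (59.9 in knockout and 28.7 in wild-type microglia, log2 difference 1.03, SE 0.25, adjusted p = 0.0209). Without S25 and S27 the differences were 1.70 for Kmo and 1.32 for Ahr. Neither call held with the closest libraries averaged, and without S26 the list had 4 genes higher and 4 lower. Ahr also rose in knockout transplanted cells, with means of 947 in knockout and 557 in wild-type transplanted cells (adjusted p = 0.047, and 0.354 without S30 and S31), a level far above that of any microglia group. Across both genotypes, 9 genes of the list were higher and 3 lower in transplanted cells than in 5xFAD microglia, where 17% and 19.2% of all genes were called in those directions. Among the 9 were Ahr (log2 difference 4.10), Kynu, which cleaves kynurenine (2.49), and Il4ra, the receptor subunit for the cytokine after which Il4i1 is named (1.16).

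Dhx33, at chr11:70984091-71004437 on the minus strand, had a different shape. Its normalized read counts were 663, 687, 616 and 672 in knockout transplanted cells and 563, 667.5, 456 and 522 in wild-type transplanted cells. Knockout 5xFAD microglia had 358, 762 and 301 (S25, S26 and S27), wild-type 5xFAD microglia 888, 933 and 912, and normal microglia 927, 848 and 945. Normal and wild-type 5xFAD microglia overlapped, with a log2 difference of 0.01 (SE 0.24), so the gene was not higher with 5xFAD. The coefficient of variation was 53.0% in knockout microglia and 2.47% in wild-type 5xFAD microglia. Without S25 and S27, the microglial Trem2 difference was -0.26, and without S26 it was -1.47. The lowest Dhx33 counts, in S25 and S27, were in the libraries with the most neutrophil marker RNA, as plotted by library. S26 had the next highest neutrophil sum, 55409, and its 762 Dhx33 reads lay above every transplanted library. S25 and S27 also had the highest monocyte marker sums, 23865 and 24408, against 10123 in S26. The part of these cells in the difference was not tested.

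**Figure D3:**
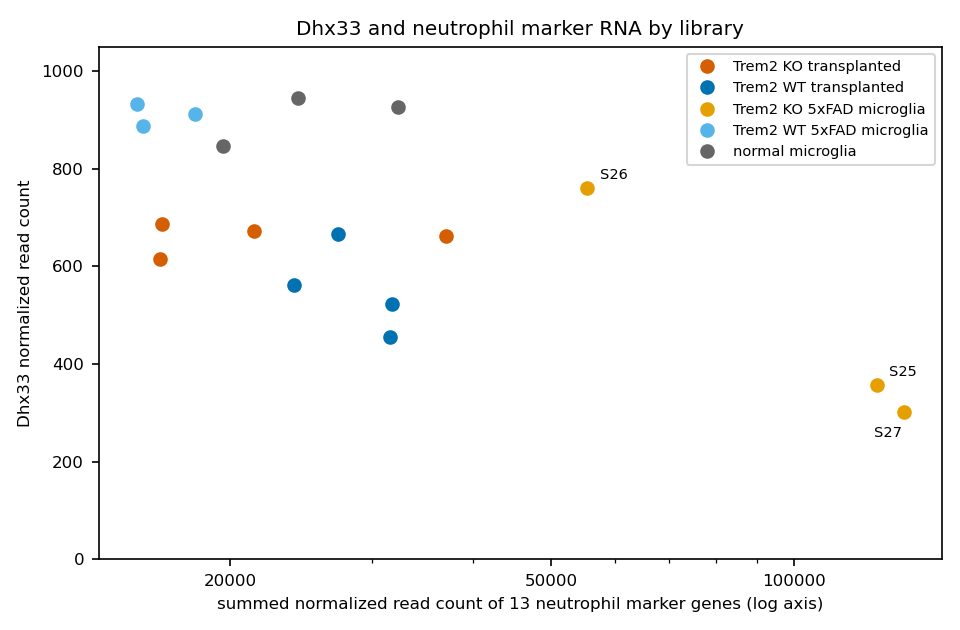
Dhx33 normalized read count (vertical axis, from 0) against the summed normalized read count of 13 neutrophil marker genes (horizontal log axis) in each of the 17 libraries, coloured by group. S25 and S27 combine 358 and 301 Dhx33 reads with the highest neutrophil sums, 126773 and 136837, and S26 lies between them and the other microglia.

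Of 22 tested DEAH and DEAD helicases and Nlrp3 inflammasome genes, 1 was called in knockout microglia, the splicing helicase Dhx38, which fell (467 in knockout and 757 in wild-type microglia, log2 difference -0.70, SE 0.17, adjusted p = 0.022). Without S25 and S27 the Dhx38 difference was -0.49, and the call was lost with the closest libraries averaged. Without S26 the list had 4 genes higher and 4 lower. Between transplanted cells Dhx36 and Ddx58 rose, and Il1b, the cytokine released after inflammasome activation, fell, with means of 1387 in knockout and 5196 in wild-type transplanted cells (log2 difference -1.85, adjusted p = 0.00476). Without S30 and S31 all 3 calls were lost, and the Il1b difference was -1.39 (adjusted p = 0.125). Of 18 tested genes of ribosomal RNA synthesis, Myc, which drives that synthesis, fell in knockout microglia, with 629 in knockout and 1240 in wild-type microglia (log2 difference -0.98, SE 0.20, adjusted p = 0.00551). Without S25 and S27 that difference was -1.10, and the call was lost with the closest libraries averaged. Myc was close to its normal level of 677 in knockout microglia, and its transplanted means were 665 in knockout and 584 in wild-type cells. The other 17 genes of the list, among them the RNA polymerase subunits, passed neither Trem2 test by limma; at an unadjusted p under 0.05, 2 genes, Myc included, were lower in knockout microglia and 3 were higher in knockout transplanted cells, and edgeR and DESeq2 each called 1 gene in microglia. Without S26, limma called 6 genes of the list higher and 2 lower in knockout microglia.

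Cd34, at chr1:194938819-194961279 on the plus strand, had 4628, 3473, 4182 and 4774 normalized reads in knockout transplanted cells and 3862, 4094, 3438 and 3699 in wild-type transplanted cells. Knockout 5xFAD microglia had 5975, 5773 and 5768, wild-type 5xFAD microglia 12437, 12392 and 13247, and normal microglia 8082, 8877 and 5617. Each transplanted library thus lay below each microglia library. Of all genes tested, 6.87% had every transplanted library below every 5xFAD microglia library. Normal microglia were already high, with an overlap with knockout microglia through S36, and the wild-type 5xFAD mean was 169% of the normal mean. Without S36, the 5xFAD-minus-normal difference was 0.58, against 0.78 with it. Cd34 shares 148 exon bases with the antisense gene Gm16897.

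The 14 endothelial markers summed to 506 to 741 in knockout transplanted cells, 587 to 1934 in wild-type transplanted cells, 1608 to 2317 in knockout 5xFAD microglia, 2123 to 2417 in wild-type 5xFAD microglia and 1140 to 1656 in normal microglia, below the Cd34 count of every library, and none of the 14 was at 0. The sum was higher in microglia than in most transplanted libraries, and its part in the Cd34 difference between cell populations was not tested. The 10 hematopoietic progenitor markers summed to 7275 to 10567 in knockout transplanted cells, 6597 to 7596 in wild-type transplanted cells, 3048 to 7101 in knockout 5xFAD microglia, 4034 to 5414 in wild-type 5xFAD microglia and 3193 to 4431 in normal microglia. That sum lay above the Cd34 count in every transplanted library and in S25 and S27, and below it in the other microglia libraries. Cd48, which other leukocytes also carry, made up 72.5% to 91.7% of the sum over the groups, and the part of progenitors in the Cd34 differences was not tested. The monocyte markers summed to 10123 to 24408 in knockout and 3836 to 4124 in wild-type 5xFAD microglia, and their part in the Trem2 difference of Cd34 was not tested. Of 17 tested sialomucin and progenitor genes, 2 rose and 1 fell in knockout against wild-type transplanted cells. Cd164, another sialomucin, rose (log2 difference 0.49, SE 0.09, limma adjusted p = 0.00931), as did the cytokine receptor Flt3 (0.99, SE 0.29, adjusted p = 0.0467), and Procr, the protein C receptor, fell, with means of 49.2 in knockout and 105.6 in wild-type transplanted cells (-1.14, SE 0.28, adjusted p = 0.0282). Without S30 and S31 none of these calls held, with differences of 0.41, 0.82 and -1.02 for Cd164, Flt3 and Procr.

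Transplanted cells were also compared with 5xFAD microglia, averaged over the Trem2 genotypes. Transplanted cells came from treated hosts and microglia from untreated mice, and the host of wild-type transplanted cells lacked Trem2. Cell origin, treatment and host genotype cannot be told apart here. This average shares the wild-type 5xFAD libraries with the contrast to normal microglia that helped to choose the members, and genes high in wild-type 5xFAD microglia alone give it a negative value, so it is a description of the members without a test. The log2 difference, transplanted cells minus microglia, was -1.11 (SE 0.10) for Cd34, -0.84 (SE 0.08) for Ank, -0.58 (SE 0.12) for Il4i1, -0.34 (SE 0.14) for Sulf2 and -0.07 (SE 0.16) for Dhx33. Of all genes, 36.1% were called in this comparison.

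The average joined unlike parts for most of the genes. Knockout transplanted cells minus knockout microglia was 0.65 for Ank, 0.53 for Sulf2, 0.60 for Dhx33 and 0.08 for Il4i1, whereas wild-type transplanted cells minus wild-type 5xFAD microglia was -2.32, -1.20, -0.74 and -1.23 for the same genes. Cd34 alone had the same sign in both, -0.46 between knockout and -1.75 between wild-type cells. For Ank, Sulf2, Dhx33 and Il4i1 the transplanted cells of both genotypes lay between the 2 groups of 5xFAD microglia in their means. Of the progenitor and sialomucin list, 9 of 17 tested genes were lower and 2 higher in transplanted cells than in 5xFAD microglia, with a list median of -1.20 against -0.02 over all genes. Among them Cd164 averaged 7272 and 5185 in knockout and wild-type transplanted cells and 12376 and 12205 in knockout and wild-type 5xFAD microglia (adjusted p = 2.91e-09).

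**Figure D4:**
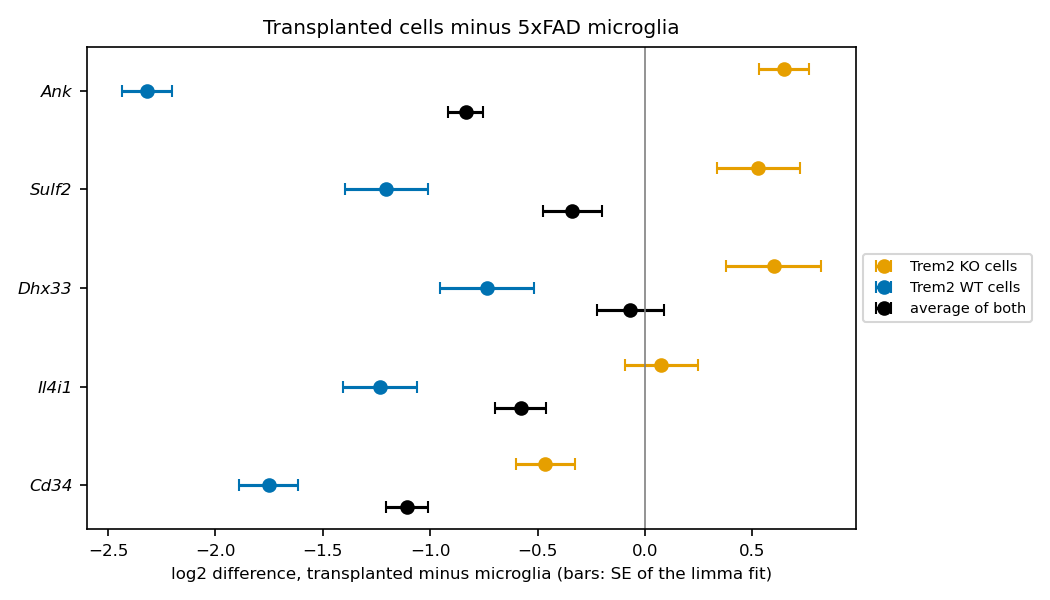
Transplanted cells minus 5xFAD microglia on the log2(value + 1) scale (horizontal axis) within Trem2 knockout cells, within wild-type cells and averaged over both, with the SE of the limma model as bars. Cd34 lies below 0 in both genotypes, whereas Ank, Sulf2 and Dhx33 lie above 0 in knockout cells and below 0 in wild-type cells, and Il4i1 is near 0 in knockout cells. The wild-type transplanted cells came from treated hosts that lacked Trem2.

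The genes of disease-associated microglia, the plaque-linked state known to depend on Trem2, give a comparison. Of 38 tested, members left out, 14 fell and 1 rose in knockout microglia, where 2.59% of all genes fell, and 12 fell in knockout transplanted cells, where 3.75% of all genes fell. Lpl, a lipase, fell in both, to 266 in knockout against 2396 in wild-type transplanted cells and to 1156 in knockout against 5838 in wild-type microglia. Without S30 and S31, 1 of the 38 fell in knockout transplanted cells. The difference between the 2 Trem2 contrasts passed the test in the direction of the members for Itgax, Axl and Csf1, and in the other direction for Lgals3 and Lyz2, against 0.87% and 1.95% of all genes. Without S26, 3 genes passed in the direction of the members and 8 in the other. Csf1, a growth factor for microglia, had 293 in knockout and 427 in wild-type transplanted cells, 1158 in knockout and 5929 in wild-type 5xFAD microglia and 745 in normal microglia. Of 24 homeostatic microglia genes, 7 rose in knockout transplanted cells, and none did so without S30 and S31.

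**Figure D5:**
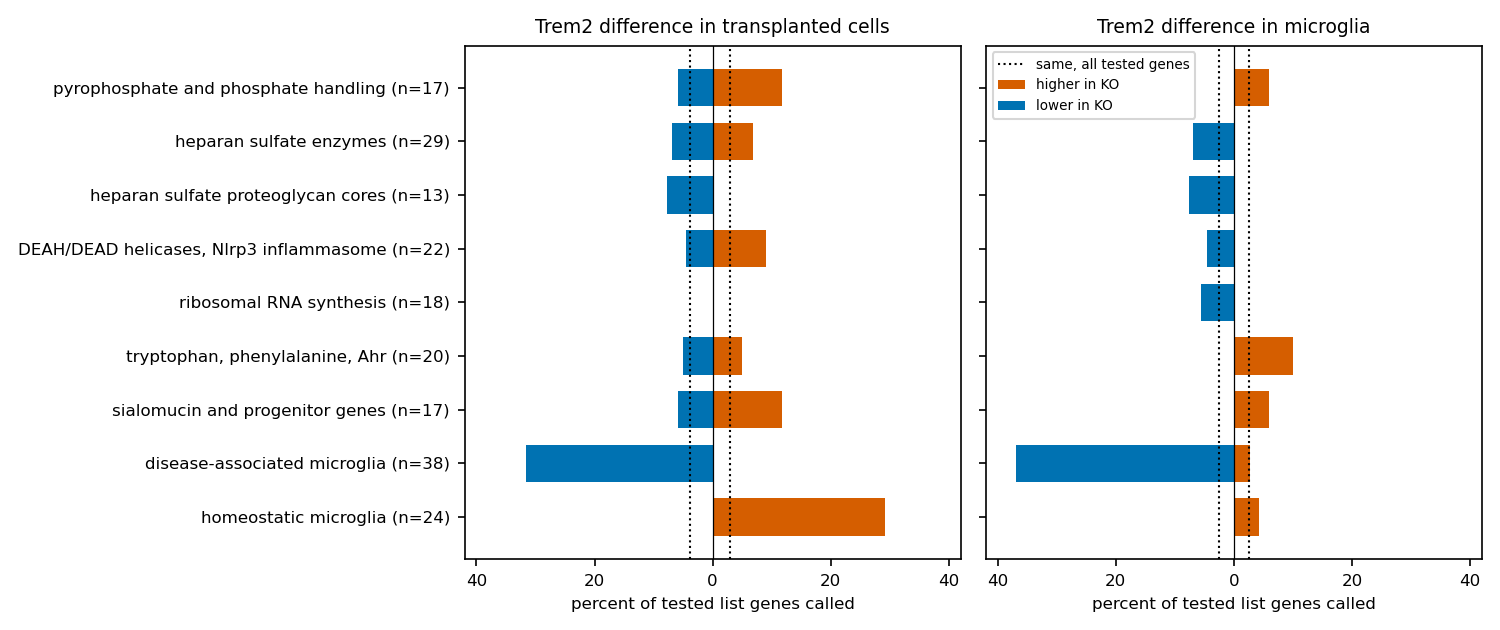
Percent of the tested genes of each list that rose (right, orange) or fell (left, blue) in Trem2 knockout against wild-type transplanted cells and 5xFAD microglia, at a limma adjusted p under 0.05, with the share of all tested genes as dotted lines. The disease-associated list stands out to the left in both panels, at 31.6% and 36.8%, and no list built around a member reaches such shares in this fit. Without S26, 14 of 29 heparan sulfate enzymes fell in knockout microglia. Most calls of the disease-associated list between transplanted cells were lost without S30 and S31.

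How closely the members varied together depended on the wild-type 5xFAD libraries. Over all 17 libraries, the Pearson correlation of log2 levels was 0.90 between Ank and Sulf2, 0.93 between Ank and Il4i1 and 0.91 between Sulf2 and Il4i1, and Dhx33 had 0.17 to 0.52 with the others. Over the 14 libraries without wild-type 5xFAD microglia, Ank and Il4i1 had 0.66, and Ank and Cd34 had -0.91. Within the 8 transplanted libraries, Sulf2 and Il4i1 had 0.75, with S30 and S31 high in both, and Dhx33 and Il4i1 had -0.86. Libraries of a group share their condition, so these values describe the groups as much as the genes.

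By the same measure over 17 libraries, the 4 tested genes most like each member included Etl4, St8sia6, Fbn2 and Lgals3bp for Ank (0.88 to 0.91), Slc2a1, Fdft1 and Tnfaip3 for Sulf2 (0.89 to 0.93), Lgals3bp, Ctsz, Ephx1 and Pdcd1 for Il4i1 (0.90 to 0.94), Zfyve1, Herpud2, Tle4 and Zfp12 for Dhx33 (0.92 to 0.94) and Otud1, Siglecf, H2-Oa and Slc16a1 for Cd34 (0.90 to 0.95). Fbn2 averaged 26.1 in wild-type 5xFAD microglia, 0.36 in knockout microglia and 0 elsewhere, so it passed the filter on low values only through that group. Etl4 averaged 202 in wild-type 5xFAD microglia and 4.95 to 30.6 in the other groups. St8sia6, a sialyltransferase, averaged 247 and 340 in knockout and wild-type transplanted cells, 191 and 1060 in knockout and wild-type 5xFAD microglia and 204 in normal microglia. Siglecf, a sialic acid receptor, averaged 84.4 and 50.1, 578 and 1945, and 603 in the same order of groups. Rank correlation shared 0, 1, 0, 2 and 1 of the 4 genes with these choices for Ank, Sulf2, Il4i1, Dhx33 and Cd34, so the choice depends on the measure.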

How the data were processed

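Sorted CD45+CD11b+ cells from 17 samples were sequenced after cDNA synthesis with the SMART-Seq v4 kit, per the labels' protocols. The submitters' processing notes name STAR 2.5.2b, bcl2fastq, DESeq2 (its version listed as 3.17), RSEM and HTSeq, and the builds GRCm38.p6 and mm10. No source used here gives the counting settings or the annotation. The deposited table holds a normalized signal per gene and library: a read count divided by a size factor of the authors, since 100% of values per library were whole multiples of its step within 0.02 (in S20 the step is too near 1 to tell at low values). Recovered reads ran from 16044078 to 30606394 per library, and size factors recomputed with DESeq2 differed by at most 2.22e-05%. Columns carry the group but, outside normal microglia, no distinct replicate number.

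Values were analysed as log2(value + 1) in genes with 10 or more in at least 3 libraries (12074 kept, 1427 left out). A single limma 3.58.1 model (lmFit, eBayes with trend, R 4.3.3) with 5 group means covered all libraries, and genes were called at a two-sided Benjamini-Hochberg adjusted p under 0.05 over all genes. The procedure was tested on simulated counts. Alternatives were other pseudocounts (0.1 and 10), no filter, other scaling, edgeR 4.0.16 and DESeq2 1.42.0 on recovered reads, array weights, fewer groups and fewer libraries; list counts and list genes without doubted libraries were added after the values were seen. Levels are normalized read counts, and per kilobase values use the exon union of GENCODE vM21 (GRCm38), which also gave gene positions. The members, gene lists and tests were chosen with earlier results of these data known. The average over genotypes of transplanted cells against microglia, planned as the members' test, is given for them without a p. Named genes are the members, Trem2, the 4 genes most like each member, up to 5 genes of a list with the smallest p, and genes overlapping a member; Enpp1 and the genes named as examples beyond these were chosen after their values were seen. Of the genes these rules pick, 2 are not reported here.

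Within groups, S22 with S23, S25 with S27 and S30 with S31 differed least (chi-square per degree of freedom 6.21, 9.86 and 4.98), above counting noise. Separate preparations of 1 animal could differ as much, so each library was kept as a replicate without that being settled, and averages of these pairs were an alternative.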

Additional observations from a re-analysis of the deposited data

Results flagged for a closer look

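In 8 genes of the lists reported here, none of them a member, the Trem2 difference in transplanted cells and that in microglia differed by the limma test of the difference itself. Each value is the transplanted minus the microglial knockout-minus-wild-type log2 difference, so a positive one means that knockout lowered the gene more, or raised it less, in microglia.

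Positive values were found for Axl, a receptor tyrosine kinase for dying cells (1.85, adjusted p = 0.000115), Csf1 (1.80, adjusted p = 0.0288), the integrin Itgax (1.49, adjusted p = 0.0153), Myc (1.14, adjusted p = 0.0215) and the nucleotidase Entpd1 (0.69, adjusted p = 0.0215). Axl had 47756 and 56392 in knockout and wild-type transplanted cells and 3244 and 14208 in knockout and wild-type 5xFAD microglia, and it is also on the list of hematopoietic brain macrophages. Negative values were found for Enpp2 (-6.50, adjusted p = 0.00989), the galectin Lgals3 (-2.51, adjusted p = 0.00828) and the lysozyme Lyz2 (-1.42, adjusted p = 0.0153). Enpp2 had 326 and 3807 in knockout and wild-type transplanted cells and 2115 and 559 in knockout and wild-type 5xFAD microglia. Lgals3 is also a monocyte marker.

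The Axl call held without S30 and S31 (adjusted p = 0.00169) and with the closest libraries averaged (adjusted p = 0.00711). Csf1 and Itgax kept the call without S30 and S31 and lost it on averaging (adjusted p = 0.109 and 0.101). Enpp2, Lgals3, Lyz2, Entpd1 and Myc lost it under both alternatives. Under these alternatives and without S25 and S27, the value lay between 1.11 and 1.26 for Myc, 0.52 and 0.68 for Entpd1, -6.20 and -4.88 for Enpp2, -2.02 and -1.49 for Lgals3 and -1.19 and -0.84 for Lyz2, all with fewer libraries than the values above. Outlying libraries were screened only in the transplanted groups, of 4 libraries each, for the members, Trem2 and the genes overlapping a member. Of these 22 sets of values, 0 held a library far from the others. The microglia groups were too small for that screen.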

How the results depend on the processing

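No paired analysis was possible because, outside normal microglia, the columns carry no distinct replicate number. Counts of called genes moved widely. For Trem2 in microglia, 615 genes became 5856 with array weights, 278 with only the groups compared, 165 with the closest libraries averaged, 230 without S25 and S27 and 1001 with DESeq2. For Trem2 in transplanted cells, 814 became 3447 with array weights, 67 with only the groups compared, 1384 without S25 and S27, 20 without S30 and S31, 30 on averaging and 1695 with DESeq2; with TMM factors 624 were higher and 366 lower, against 361 and 453. For the difference of the Trem2 differences, 341 became 4538 with array weights, 163 without S25 and S27, 149 without S30 and S31, 72 on averaging and 874 with DESeq2. For 5xFAD against normal microglia, 457 became 2227 with array weights, 1757 with only the groups compared, 245 on averaging and 760 with DESeq2. For transplanted cells against 5xFAD microglia, 4364 became 7036 with array weights.

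Leaving out each library in turn gave 297 to 3666, 113 to 1881, 185 to 1665, 272 to 820 and 3759 to 5283 genes in the same order of comparisons. Removal of S26 gave the highest counts for Trem2 in microglia, the difference of the Trem2 differences and 5xFAD, and removal of S28 the highest for Trem2 in transplanted cells, where removal of S30 or S31 gave the lowest.

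The members' Trem2 differences kept their sign in microglia under the alternatives run. For the difference of the Trem2 differences, Ank had 3.15 without S25 and S27, and Dhx33 had 1.82 with array weights, 0.53 without S25 and S27 and 1.07 to 1.74 when libraries were left out in turn. In transplanted cells against 5xFAD microglia, Dhx33 had -0.47 without S25 and S27, 0.0945 with array weights, 0.0137 without S30 and S31 and -0.20 to 0.134 when libraries were left out in turn, the highest without S26, in place of -0.07. The cause was not tested. The negative averages of Ank, Sulf2, Il4i1 and Cd34 kept their sign under each alternative run, Sulf2 with -0.43 to -0.26 when libraries were left out in turn. With the closest libraries averaged, 0 of the list genes called between transplanted cells kept the call outside the disease-associated list, and 2 genes of that list did; in microglia Gusb and Lpl kept it, and Nt5e, Xylt1, Sdc3, Kmo, Ahr, Dhx38 and Myc did not. Member reads of 278 or more per library limit precision less than the spread between libraries does.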
